A study of Mus musculus with 20 samples.

Results

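The response of wild-type mouse liver to bile duct ligation was read from 10 of the 20 libraries of the series, 5 from livers after ligation and 5 from livers after sham surgery. A gene entered the comparison when it reached 0.5 FPKM (fragments per kilobase of transcript, scaled by library) in at least 5 of these 10 libraries. That left 13020 of 54532 gene entries. The full series crosses the same surgeries with a knockout of STING, the adaptor that links DNA sensing in the cytosol to type I interferon, and it sequenced polyadenylated liver RNA. The knockout libraries enter no result below except where a fit over all 4 groups is named.

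Both groups were wild type at the STING locus. The ligated group had carried a ligated bile duct for 7 days, and the sham group had undergone surgery without ligation. The time between sham surgery and collection, the strain, the age and the sex of the mice are not given in the sources used here. The titles number the libraries, and nothing in the labels says that each came from a separate animal, so the p-values below measure the spread between these libraries.

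Bile carries bile acids, cholesterol, phospholipid and conjugated waste from hepatocytes through the bile ducts to the gut. When the common bile duct is tied, bile acids accumulate in the liver and plasma, bile duct epithelium multiplies around the portal tracts, leukocytes enter the tissue and matrix is laid down. Hepatocytes are known to answer such injury by secreting acute phase proteins into plasma and by altering the uptake, synthesis and export of bile acids.

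The 10 libraries held 14947910 to 20902772 fragments assigned to genes, as recovered from the deposited values, and 1 fragment per kilobase corresponded to 0.0467 to 0.0669 FPKM. Y-linked transcripts marked 5 libraries (Sham_Wt_2223 and Sham_Wt_2224, BDL_Wt_2233, BDL_Wt_2235 and BDL_Wt_2236) and Xist marked the other 5 (Sham_Wt_2227, Sham_Wt_2228 and Sham_Wt_2229, BDL_Wt_2237 and BDL_Wt_2240), so the classes were not evenly spread over the groups. Hepatocyte markers dominated every library, with Alb, the gene of serum albumin, at 15164 to 44434 FPKM. The adipocyte genes Adipoq and Plin1 and the pancreatic gene Prss2 were listed at 0 in all 10 libraries. In whole liver, more cells of a type and more RNA per cell cannot be told apart.

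Ligation changed 5974 of the 13020 genes (45.9%), 2951 of them higher (22.7%) and 3023 lower (23.2%), at a limma adjusted p under 0.05. At least 2-fold higher were 819 (6.29%) and at least 2-fold lower 507 (3.89%), and for 33% of all genes tested the 5 ligated libraries did not overlap the 5 sham libraries. Every change below is a difference of mean log2(FPKM + 0.5) ± standard error between 5 ligated and 5 sham libraries, called "log2 units", a scale that understates changes of low genes. Single values are FPKM, listed in the order of the library numbers just named, from Sham_Wt_2223 to Sham_Wt_2229 and from BDL_Wt_2233 to BDL_Wt_2240, and group levels are mean FPKM ± SD. The median change of all genes was -0.02 log2 units, with 5% of them below -0.92 and 5% above 1.14. Genes called higher made up 49.4% of calls on the deposited scale, 71.5% when each library was scaled to its fragment total (median of all genes up by 0.16) and 82.2% as TPM, in which each library has the same sum over transcripts (median up by 0.30). The sum of FPKM was lower in each ligated library (315016 to 347516) than in any sham library (393884 to 439211). A turnover of calls with scaling is named with some gene lists only, and counts of lists without such a note can shift too. As TPM complement genes gave 18 higher and 2 lower, iron genes 13 and 3 and cell death genes 21 and 0. Bile acid synthesis and conjugation enzymes gave 3 higher and 7 lower as TPM, and apolipoprotein and lipoprotein genes 5 and 8. Single genes that lose the call with another scaling are listed at the end. Among the tested genes 250 were under 0.5 FPKM in all 5 sham libraries and 64 in all 5 ligated libraries, and such genes passed the filter through 1 group and had to differ.

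**Figure D1:**
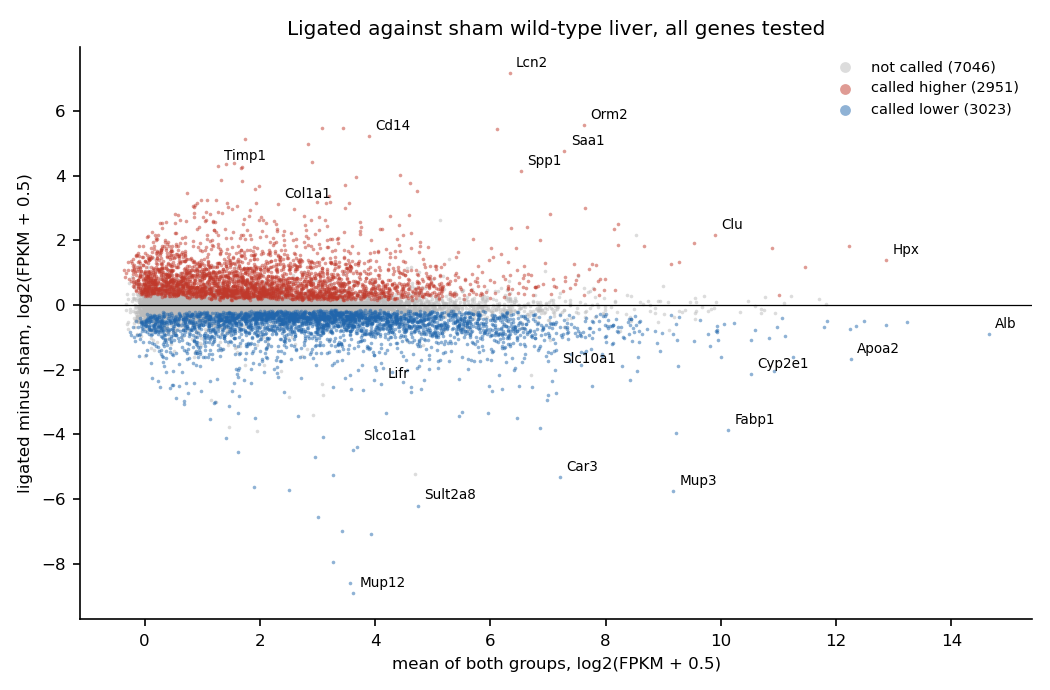
Difference between ligated and sham wild-type liver (vertical axis, log2 units) against the mean of both groups (horizontal axis, log2(FPKM + 0.5)) for 13020 genes, 1 point per gene. Red points were called higher (2951), blue points lower (3023) and grey points were not called. Lcn2 stands at the top and Mup12 at the bottom, and the abundant genes Alb, Apoa2 and Hpx lie to the right.

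Lcn2, the iron-scavenging protein lipocalin 2, rose most, followed by Orm2, a plasma orosomucoid, Cib3, a calcium-binding protein, Ly6d, a surface protein of epithelial and lymphoid cells, and Saa2, a serum amyloid. Cib3 rose from 0.927 ± 0.731 to 56.99 ± 14.4 FPKM (5.47 ± 0.35 log2 units), Ly6d from 1.17 ± 0.3303 to 91.6 ± 69.3 FPKM (5.47 ± 0.45), the cornified envelope gene Sprr1a from 0.0667 ± 0.0924 to 24.6 ± 13.1 FPKM (5.15 ± 0.53) and the ubiquitin-like gene Ubd from 0.821 ± 0.4005 to 40.8 ± 10.9 FPKM (4.98 ± 0.23). In FPKM, Hpx, the heme carrier hemopexin, rose from 4643 ± 804 to 12129 ± 584 FPKM and Hp, the hemoglobin carrier haptoglobin, from 2604 ± 804 to 9025 ± 719 FPKM. Epcam, an adhesion molecule of bile duct epithelium, had the smallest p of all genes (limma adjusted p = 3.23e-08), at 0.993, 1.05, 0.993, 0.995 and 0.979 FPKM in the sham and 6.75, 6.03, 5.81, 6.67 and 6.23 FPKM in the ligated libraries. Neither group of Epcam values spread widely, and the lowest ligated value was several times the highest sham value.

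The largest decreases were in major urinary protein genes, in the sulfotransferase gene Sult2a8, in the steroid dehydrogenase gene Hsd3b5 and in Car3, an abundant carbonic anhydrase. By voom on recovered fragments the calls of Hsd3b5 (voom adjusted p = 0.217) and of Mup12, the gene with the largest decrease (voom adjusted p = 0.109), were lost. Sult2a8 measured 332, 296, 204, 194 and 159 FPKM in the sham and 1.15, 2.85, 2.02, 1.12 and 12.3 FPKM in the ligated libraries. All ligated libraries were below the sham libraries, and among them BDL_Wt_2240 was the highest. Car3 fell by 5.32 ± 0.48 log2 units, from 1014 ± 466 to 28.1 ± 18.7 FPKM. In FPKM the largest losses included Alb, which fell from 35381 ± 6711 to 19064 ± 3136 FPKM, Apoa2, an apolipoprotein of high density lipoprotein, which fell from 8762 ± 914 to 2768 ± 443 FPKM, and Fabp1, the liver fatty acid-binding protein, which fell from 4399 ± 1046 to 370.2 ± 341 FPKM. Fabp1 was at 189.7, 236, 266, 182 and 977 FPKM in the ligated libraries, a range in which no library reached the lowest sham value of 2979 FPKM.

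**Figure D2:**
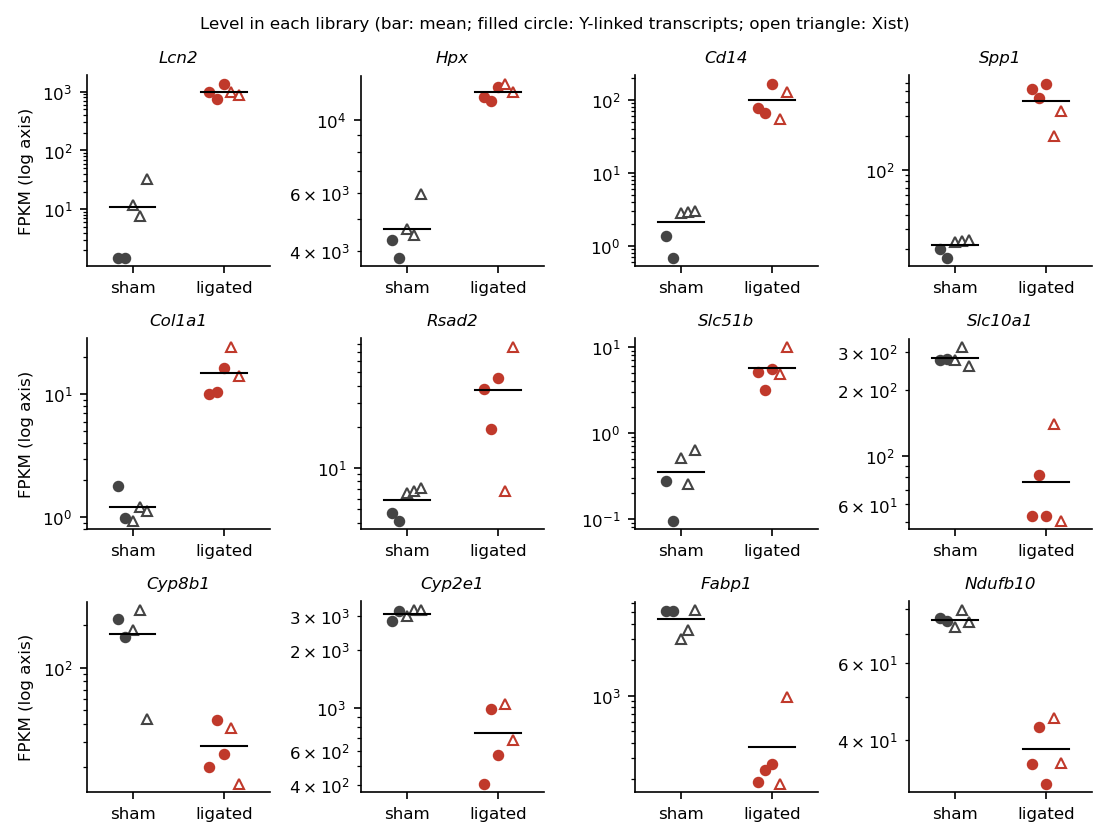
FPKM of 12 genes in each of the 10 libraries, on a log axis, with sham libraries in grey and ligated libraries in red. Filled circles are libraries with Y-linked transcripts, open triangles libraries with Xist, and bars are group means. Rsad2 in 1 ligated library, at 6.79 FPKM, lies among the sham values.

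Acute phase reactants are plasma proteins that hepatocytes secrete in response to interleukin-6 and interleukin-1. Of 27 tested, 18 rose and 2 fell, with a median of 1.40 log2 units, against 22.7% and 23.2% of all genes and a median of -0.02. Lcn2, on chromosome 2, 32384633 to 32388252, minus strand of GRCm38 (ENSMUSG00000026822), measured 1.49, 1.51, 11.9, 7.69 and 33.03 FPKM in the sham and 985, 759, 1344, 982 and 889 FPKM in the ligated libraries. The sham libraries differed among themselves, with Sham_Wt_2229 the highest, yet each ligated library exceeded all of them, and Lcn2 rose by 7.18 ± 0.69 log2 units (limma adjusted p = 2.03e-05). Orm2 measured 9.44, 7.17, 48.6, 48.5 and 104 FPKM in the sham and 1469, 1529, 1263, 1656 and 984 FPKM in the ligated libraries, a rise of 5.57 ± 0.64 (limma adjusted p = 6.17e-05), with the same pair of sham libraries, Sham_Wt_2223 and Sham_Wt_2224, lowest. Orm2, Orm1 (up by 1.76 ± 0.18) and Orm3 (up by 3.76 ± 0.56) are near-identical copies that share reads, so the split between them is uncertain. Saa1 and Saa2, amyloid proteins carried on lipoprotein, rose by 4.76 ± 0.32 and 5.46 ± 0.49, and they share reads as well. Cp, the copper-binding ferroxidase ceruloplasmin, rose by 1.86 ± 0.12, from 157 ± 24.7 to 569.7 ± 65.98 FPKM.

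The acute phase list did not move as a block. The 3 fibrinogen chain genes Fga, Fgb and Fgg stood at 0.27 ± 0.22, 0.24 ± 0.20 and 0.06 ± 0.21 log2 units and Crp, C-reactive protein, at 0.04 ± 0.11, none of them called on the deposited scale. As TPM Fga, Fgb and Crp were called higher (0.59, 0.56 and 0.37 log2 units), and after quantile normalization Fgg as well. Among sham libraries Sham_Wt_2229 was highest for the 3 chains (Fga at 3598 FPKM, others 1762 to 2004). Hamp, the iron hormone hepcidin, which interleukin-6 is known to raise, measured 2715, 2613, 5194, 2764 and 2689 FPKM in the sham and 1647, 1804, 1052, 2359.2 and 1313 FPKM in the ligated libraries. It fell by 0.96 ± 0.25 (limma adjusted p = 0.00888) without overlap of the groups. Its copy Hamp2 measured 5.71, 7.58, 79.5, 88.99 and 60.7 FPKM in the sham and 6.16, 6.27, 1.52, 8.55 and 2.85 FPKM in the ligated libraries, so that Sham_Wt_2223 and Sham_Wt_2224 lay among the ligated ones, and it fell by 2.59 ± 0.81 (limma adjusted p = 0.0232), a call lost without Sham_Wt_2227, Sham_Wt_2228, Sham_Wt_2229, BDL_Wt_2236 or BDL_Wt_2240 (limma adjusted p = 0.053 to 0.0598), and also lost by voom (voom adjusted p = 0.0654).

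Promoters of 2 acute phase genes are shown because their transcripts rose most among members with a match to a C/EBP motif, the binding motif of the factors that drive many acute phase genes. Sequences are from RefSeq (GRCm38.p6), 5′ to 3′ along the strand of the gene, the 250 bases before the start, with the match to TTGCNNAA in capitals. The Lcn2 stretch is chr2:32387740-32387989 on the minus strand, with the match from 216 to 209 bases before the start. It lies inside the Lcn2 span given above, so the RefSeq start used is downstream of the outer end of that span. The Orm2 stretch is chr4:63362199-63362448 on the plus strand, with the match from 120 to 113 bases before the start.
Lcn2: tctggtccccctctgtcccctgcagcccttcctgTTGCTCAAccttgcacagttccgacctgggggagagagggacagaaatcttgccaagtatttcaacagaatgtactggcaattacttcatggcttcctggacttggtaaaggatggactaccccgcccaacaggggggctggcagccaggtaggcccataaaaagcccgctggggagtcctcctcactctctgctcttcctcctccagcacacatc
Orm2: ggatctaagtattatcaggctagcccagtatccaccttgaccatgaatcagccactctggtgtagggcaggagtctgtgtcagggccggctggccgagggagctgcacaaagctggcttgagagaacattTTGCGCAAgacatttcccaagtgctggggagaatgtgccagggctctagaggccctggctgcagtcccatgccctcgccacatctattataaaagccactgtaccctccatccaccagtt
Such a match, on either strand of the window from 250 bases before to 50 after the start, was present in 14 of 23 acute phase genes with a RefSeq window (60.9%) and in 10.9% of 9270 tested genes with one. The STAT motif TTCNNNGAA was present in 7 of the 23 (30.4%, against 8.33%) and the NF-kB motif GGANTTTCC in 0 (against 1.61%). A match describes letters only, not binding.

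Receptors of the interleukin-6 family moved in opposite directions. Of 14 genes 6 rose and 3 fell (median 0.33). Lifr, the receptor for leukemia inhibitory factor, measured 33.6, 42.1, 35.04, 47.8 and 41.97 FPKM in the sham and 5.99, 7.98, 5.71, 6.26 and 8.76 FPKM in the ligated libraries. No ligated library came near the sham range, and Lifr fell by 2.45 ± 0.13 log2 units (limma adjusted p = 1.15e-06). Osmr, the oncostatin M receptor, rose by 1.63 ± 0.19 from 0.392 ± 0.108 to 2.35 ± 0.852 FPKM, and the ligand gene Clcf1 rose by 2.31 ± 0.10 from 0.545 ± 0.113 to 4.69 ± 0.553 FPKM. Il11ra1, the interleukin-11 receptor, fell by 0.82 ± 0.12. Among the downstream genes, Socs3, the feedback inhibitor of this pathway, rose by 1.89 ± 0.33 and the hepatocyte transcription factor gene Cebpa fell by 0.93 ± 0.16, from 182 ± 37.96 to 94.3 ± 15.3 FPKM. The shared receptor chain Il6st (0.16 ± 0.08) and the transcription factor Stat3 (0.15 ± 0.14) were not called.

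Receptors for bacterial products rose nearly throughout. Of 15 Toll-like receptor genes and partners 13 rose and 1 fell (median 1.03), and 2 of them were under 0.5 FPKM in all sham libraries. Cd14, which hands endotoxin to Tlr4, measured 1.37, 0.681, 2.81, 2.89 and 2.95 FPKM in the sham and 76.95, 66.4, 165, 55.5 and 130.0 FPKM in the ligated libraries. Ligated values of Cd14 spread widely, all far above the sham values, and Cd14 rose by 5.23 ± 0.37 log2 units (limma adjusted p = 3.92e-06). Tlr2, which binds bacterial lipoproteins, rose by 2.60 ± 0.20, from 1.47 ± 0.513 to 11.4 ± 2.78 FPKM. Tlr13 and Tlr9, sensors of bacterial RNA and DNA, rose by 1.87 ± 0.12 and 1.70 ± 0.19. Tlr5, the flagellin receptor, fell by 0.95 ± 0.15, from 1.92 ± 0.575 to 0.731 ± 0.142 FPKM, and Ly96, the endotoxin-binding partner of Tlr4, was not called at -0.08 ± 0.14.

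Of 20 NF-kB subunits, feedback genes and cytokines 17 rose and 0 fell (median 0.97). Tnfaip3, which encodes the NF-kB inhibitor A20, rose by 2.88 ± 0.16, from 0.395 ± 0.101 to 6.21 ± 1.63 FPKM. Nfkb2 and Relb, the subunits of the noncanonical branch, rose by 1.82 ± 0.15 and 1.8 ± 0.17, and the canonical subunit genes Nfkb1 and Rela by 0.61 ± 0.08 and 0.42 ± 0.10, and whether these rises differ was not tested. Icam1, an adhesion molecule for leukocytes, rose by 1.85 ± 0.14. The cytokine genes Tnf and Il6 did not pass the filter, and Il1a (-0.11 ± 0.15) and Il18 (-0.15 ± 0.15) were not called.

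Chemokines, the secreted attractants of leukocytes, rose in 14 of 20 cases and fell in 2 (median 1.22), with 3 under 0.5 FPKM in all sham libraries. Cxcl14, which attracts monocytes and dendritic cells, rose most, by 3.70 ± 0.21 log2 units, from 0.618 ± 0.225 to 14.2 ± 4.04 FPKM. The neutrophil attractant Cxcl1 measured 2.79, 1.32, 2.51, 0.701 and 8.04 FPKM in the sham and 62.8, 30.5, 37.6, 15.9 and 18.3 FPKM in the ligated libraries, without overlap, and rose by 3.39 ± 0.51 (limma adjusted p = 0.000353). Ccl2, the ligand of Ccr2 on monocytes, measured 2.41, 2.06, 4.398, 1.78 and 5.88 FPKM in the sham and 23.1, 18.5, 29.7, 13.5 and 25.9 FPKM in the ligated libraries. BDL_Wt_2237 was the lowest ligated library for Cxcl1 and for Ccl2, though above the sham range in both, and Ccl2 rose by 2.64 ± 0.30. Cxcl12, a stromal retention signal, fell by 0.88 ± 0.14, from 42.6 ± 3.77 to 23.2 ± 5.09 FPKM, and Ccl27a fell by 0.90 ± 0.16. The T cell attractants Ccl5 (0.19 ± 0.29) and Cxcl9 (0.22 ± 0.58) were not called. Monocyte markers, of which 11 of 12 rose from a sum of 44.6 to 65.1 FPKM to one of 128 to 165 FPKM, moved with the receptors, NF-kB genes and chemokines, and their part in these rises was not tested.

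Promoters of Cxcl1 and Cxcl2, neighbouring genes for neutrophil attractants on chromosome 5, are shown because both rose and both hold 1 match to the NF-kB motif GGANTTTCC (in capitals). Cxcl2 rose from 0.0745 ± 0.0859 to 1.97 ± 0.7097 FPKM. Coordinates are chr5:90890995-90891244 and chr5:90903649-90903898 on the plus strand, with the match from 70 to 62 and from 96 to 88 bases before the start.
Cxcl1: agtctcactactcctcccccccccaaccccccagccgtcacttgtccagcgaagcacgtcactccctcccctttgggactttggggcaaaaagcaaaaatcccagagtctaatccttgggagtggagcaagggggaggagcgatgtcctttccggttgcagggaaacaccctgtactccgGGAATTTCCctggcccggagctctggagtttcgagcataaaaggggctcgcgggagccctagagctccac
Cxcl2: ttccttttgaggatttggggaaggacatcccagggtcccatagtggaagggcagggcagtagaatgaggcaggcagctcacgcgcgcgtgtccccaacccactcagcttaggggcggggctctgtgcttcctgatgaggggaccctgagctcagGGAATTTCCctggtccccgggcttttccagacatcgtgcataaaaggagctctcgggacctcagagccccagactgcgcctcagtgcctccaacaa
The matches have the same letters, GGAATTTCC, in both promoters. Of 13 chemokine genes with a RefSeq window, 3 held such a match (23.1%), against 1.61% of tested genes.

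Type I interferon-stimulated genes encode antiviral effectors that cells switch on through the factor ISGF3. Of 34 tested 28 rose and 0 fell, with a median of 1.14, and for 11 of the 34 the groups did not overlap, where 33% of all genes separated so. Rsad2, the antiviral enzyme viperin, measured 4.72, 4.14, 6.57, 6.82 and 7.19 FPKM in the sham and 37.9, 19.4, 45.03, 6.79 and 76.1 FPKM in the ligated libraries (up by 2.20 ± 0.52 log2 units, limma adjusted p = 0.00559). BDL_Wt_2240 was the highest and BDL_Wt_2237 stood inside the sham range. Isg15, a ubiquitin-like modifier, measured 32.1, 20.3, 48.2, 26.7 and 58.2 FPKM in the sham and 139, 74.4, 207, 34.8 and 317 FPKM in the ligated libraries, with the same libraries highest and lowest after ligation, and rose by 1.77 ± 0.54, a call lost without Sham_Wt_2224 or BDL_Wt_2236 (limma adjusted p = 0.0518 to 0.0536). Mx1, an antiviral GTPase, measured 1.43, 1.64, 2.52, 2.08 and 2.57 FPKM in the sham and 15.8, 9.88, 14.5, 4.02 and 14.6 FPKM in the ligated libraries and rose by 2.15 ± 0.32 without overlap, with BDL_Wt_2237 again lowest. Ifit2 and Oasl1 rose by 2.04 ± 0.24 and 2.04 ± 0.27, also without overlap. The transcription factor genes Irf9 (0.08 ± 0.10) and Stat2 (0.20 ± 0.14), parts of ISGF3, were not called, and neither was Irf7 (0.45 ± 0.23), though called without BDL_Wt_2235 (limma adjusted p = 0.029).

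The number of interferon-stimulated genes called depended on which libraries were read. It was 29 in the libraries with Y-linked transcripts and 1 in those with Xist, where the 2 ligated libraries were BDL_Wt_2237 and BDL_Wt_2240, the lowest and the highest for Rsad2 and Isg15. Leaving out 1 library at a time gave 20 to 29 genes called higher. Of 12 markers of T and NK cells, a source of interferon gamma, 7 did not pass the filter, among them Cd3d, Cd3e and Cd3g. The 5 tested gave 0 calls over all libraries (limma, with 0 at an unadjusted p under 0.05 and 0 by voom), while in the libraries with Xist the granzyme gene Gzma was called higher by 0.95 ± 0.24 (limma adjusted p = 0.0451). The summed level of the markers ranged from 4.54 to 8.37 FPKM in sham and from 3.24 to 14.6 FPKM in ligated libraries.

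The Rsad2 and Ifit1 promoters are shown because these genes rose most among interferon-stimulated genes with a match to the core of the interferon-stimulated response element, GAAANNGAA on either strand. The stretches are chr12:26456453-26456702 on the minus strand, with 1 match from 119 to 111 bases before the start, and chr19:34640639-34640888 on the plus strand, with 3 matches that begin 109, 103 and 84 bases before it, of which the first and second overlap.
Rsad2: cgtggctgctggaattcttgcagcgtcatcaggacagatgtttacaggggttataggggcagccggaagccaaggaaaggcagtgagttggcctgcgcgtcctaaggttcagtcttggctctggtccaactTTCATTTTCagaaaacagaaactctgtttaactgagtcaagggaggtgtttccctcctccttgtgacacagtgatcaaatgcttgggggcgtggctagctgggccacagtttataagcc
Ifit1: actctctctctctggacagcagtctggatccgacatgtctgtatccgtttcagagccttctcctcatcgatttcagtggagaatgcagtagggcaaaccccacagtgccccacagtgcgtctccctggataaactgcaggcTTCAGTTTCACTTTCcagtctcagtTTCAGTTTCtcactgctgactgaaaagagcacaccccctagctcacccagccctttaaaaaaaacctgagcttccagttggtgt
Ifit1, which binds viral RNA, was at 11.1, 7.61, 17.2, 14.3 and 21.6 FPKM in the sham and 62.4, 46.1, 80.4, 17.5 and 109 FPKM in the ligated libraries, with BDL_Wt_2237 in the sham range. Such a match was present in 15 of 24 interferon-stimulated genes with a RefSeq window (62.5%), against 8.92% of tested genes.

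Of 11 genes of the cGAS-STING pathway 7 rose and 1 fell (median 0.92), with 1 under 0.5 FPKM in all sham libraries. Tmem173, the gene of STING, measured 1.87, 0.843, 1.79, 1.69 and 2.34 FPKM in the sham and 2.89, 2.598, 4.605, 3.91 and 4.196 FPKM in the ligated libraries. Its groups did not overlap, and it rose by 0.92 ± 0.20 (limma adjusted p = 0.00369). The nucleic acid sensor Zbp1 rose by 1.68 ± 0.35, the kinase gene Ikbke by 1.61 ± 0.21 and the DNA-sensing p200 family genes Ifi207 and Ifi204 by 1.35 ± 0.13 and 1.17 ± 0.12. Irf3, the transcription factor that STING activates, fell by 0.36 ± 0.05, from 18.2 ± 0.907 to 14.1 ± 0.279 FPKM, a narrow change without overlap, and the kinase gene Tbk1 was not called at 0.15 ± 0.10.

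MHC class I genes, which display peptides to T cells, were mostly not called. Of 12 genes 2 rose (16.7%, against 22.7% of all genes) and 2 fell (16.7%, against 23.2%), with a median of 0.07. The peptide transporter gene Tap1 rose by 0.56 ± 0.20, a call lost without any 1 library other than Sham_Wt_2227 and BDL_Wt_2235 (limma adjusted p = 0.0516 to 0.0946), and the class I activator gene Nlrc5 by 0.45 ± 0.10. H2-K1, a heavy chain, fell by 0.47 ± 0.14, a call lost without Sham_Wt_2227, BDL_Wt_2233 or BDL_Wt_2236 (limma adjusted p = 0.0517 to 0.0536), and B2m, the light chain, by 0.41 ± 0.11. As TPM 6 rose and 0 fell. Of 7 class II genes 4 rose (median 0.73), among them Ctss, a protease of antigen processing, by 1.32 ± 0.16, and Cd74, the invariant chain, by 0.73 ± 0.22. Without Sham_Wt_2227, and likewise without BDL_Wt_2235, 7 rose.

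Of 25 complement genes 10 rose and 4 fell (median 0.31). C3, the central component, rose from 1944 ± 575 to 4294 ± 789 FPKM (1.18 ± 0.22 log2 units). The receptor genes C5ar1 and C3ar1, carried by myeloid cells, rose by 2.08 ± 0.12 and 1.79 ± 0.19, C5ar1 from 0.261 ± 0.066 to 2.75 ± 0.608 FPKM. C8g, a chain of the membrane attack complex, fell by 1.46 ± 0.15, and the lectin pathway genes Mbl1 and Masp2 fell by 0.59 ± 0.11 and 0.65 ± 0.11. Coagulation and fibrinolysis factors, also made by hepatocytes, fell in 13 of 20 cases and rose in 3 (median -0.32), though as TPM 4 fell and 5 rose (median 0.01). F7, clotting factor VII, and F13b, a subunit of clotting factor XIII, fell by 0.75 ± 0.14 and 0.71 ± 0.10. Pros1, the anticoagulant protein S, rose by 0.93 ± 0.12, Thbd, thrombomodulin, by 0.77 ± 0.20 and the kininogen gene Kng2 by 0.55 ± 0.15. Hepatocyte markers moved with the coagulation genes, 9 of 15 lower and 1 higher, with a summed level of 51520 to 70530 FPKM in sham and 25500 to 35460 FPKM in ligated libraries, and their part in the coagulation decreases was not tested.

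Serpins and other plasma or secreted protease regulators went both ways. Of 14 genes 8 rose and 2 fell (median 0.91). Serpinb6b, a serpin of the intracellular clade, rose by 4.44 ± 0.30, from 1.18 ± 0.524 to 37.3 ± 15.6 FPKM. Spink1, an inhibitor of trypsin, rose by 4.27 ± 0.39 and Slpi, an inhibitor of neutrophil elastase, by 3.6 ± 0.30, from 0.588 ± 0.111 to 13.9 ± 6.61 FPKM. Serpina6, the plasma carrier of corticosterone, measured 80.7, 81.9, 188, 225 and 217 FPKM in the sham and 9.42, 22.4, 7.24, 6.83 and 34.01 FPKM in the ligated libraries. The sham libraries with Y-linked transcripts held the lowest sham values, all ligated libraries were lower still, and Serpina6 fell by 3.42 ± 0.49. Serpina1c, an alpha-1 antitrypsin gene, fell by 1.61 ± 0.17, but its paralogs share reads.

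Enzymes that make and conjugate bile acids fell or were not called. Of 15 tested 8 fell and 0 rose (median -0.77 log2 units), against 23.2% and 22.7% of all genes. Cyp8b1, the sterol hydroxylase that directs synthesis to cholic acid, measured 221, 163, 183, 254 and 43.4 FPKM in the sham and 19.97, 42.9, 24.6, 37.6 and 15.1 FPKM in the ligated libraries. Sham_Wt_2229 nearly reached the highest ligated value, and Cyp8b1 fell by 2.49 ± 0.46 (limma adjusted p = 0.0013). Cyp7a1, the rate-limiting enzyme of the classic pathway, measured 13.1, 16.2, 37.5, 54.8 and 30.5 FPKM in the sham and 13.8, 43.9, 10.5, 88.9 and 2.803 FPKM in the ligated libraries. Its groups overlapped, with ligated values on both sides of the sham range, and the change of -0.56 ± 0.79 was not called (limma adjusted p = 0.592). Cyp7b1 of the alternative pathway fell by 2.08 ± 0.69 with overlap of the groups, a call lost without Sham_Wt_2223, Sham_Wt_2224, BDL_Wt_2233, BDL_Wt_2237 or BDL_Wt_2240 (limma adjusted p = 0.0557 to 0.0735). It was high only in the sham libraries with Y-linked transcripts (166 and 116 FPKM). The hydroxysteroid dehydrogenase gene Akr1c6 fell by 1.89 ± 0.20, from 603 ± 76.02 to 168 ± 53.6 FPKM, and Slc27a5, the ligase that activates bile acids for conjugation, by 1.03 ± 0.12. Baat, which attaches taurine or glycine, was not called at -0.06 ± 0.12.

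Uptake carriers of the sinusoidal membrane fell in 6 of 8 cases (median -1.61). Slc10a1, the sodium-dependent bile acid carrier NTCP, measured 274, 278, 276, 315 and 257 FPKM in the sham and 53.1, 81.5, 53.3, 139.8 and 50.5 FPKM in the ligated libraries. The ligated libraries were all below the sham libraries, with BDL_Wt_2237 the least changed, and Slc10a1 fell by 2.00 ± 0.25 (limma adjusted p = 0.000108). Slco1a1, an organic anion carrier, fell by 4.38 ± 0.43, from 67.1 ± 40.5 to 2.59 ± 1.47 FPKM. Slco1b2 and Slc22a7, carriers of organic anions, fell by 1.49 ± 0.15 and 1.73 ± 0.35. Slco1a4 was not called at 0.12 ± 0.37. The part of the lower hepatocyte markers in the decreases of these carriers and of the bile acid enzymes was not tested.

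Exporters of the canalicular membrane, which pump bile components into bile, went both ways. Of 8, 2 rose (25%, against 22.7% of all genes) and 4 fell (50%, against 23.2%), with a median of -0.26. As TPM 3 rose and 2 fell and the median was 0.06. The sterol exporter subunits Abcg8 and Abcg5 fell by 2.32 ± 0.25 and 1.69 ± 0.31. Abcg8 measured 26.7, 34.4, 46.3, 33.5 and 36.6 FPKM in the sham and 4.25, 7.52, 4.09, 9.25 and 10.1 FPKM in the ligated libraries, without overlap. Abcb11, the bile salt export pump, fell by 0.37 ± 0.11, from 149 ± 12.5 to 115 ± 18.1 FPKM, and Abcc2, which exports conjugated bilirubin, by 0.46 ± 0.17, both with overlap of the groups, the second a call lost without any 1 library other than Sham_Wt_2229, BDL_Wt_2235 and BDL_Wt_2237 (limma adjusted p = 0.0623 to 0.106). Abcb4, the phospholipid flippase of bile, rose by 0.79 ± 0.16, from 31.6 ± 5.77 to 54.9 ± 10.8 FPKM, and Abcb1a, an exporter of foreign compounds, by 1.68 ± 0.28. On the basolateral side, from which bile acids return to blood, Slc51b, the beta subunit of the organic solute transporter, measured 0.276, 0.0944, 0.504, 0.253 and 0.634 FPKM in the sham and 5.06, 3.12, 5.53, 4.82 and 9.99 FPKM in the ligated libraries and rose by 2.81 ± 0.26 (limma adjusted p = 1.69e-05). All its ligated values were well above the sham values, while its partner Slc51a did not pass the filter. Abcc3, an exporter of conjugated organic anions, was not called at 0.46 ± 0.17 (limma adjusted p = 0.053), though called without Sham_Wt_2228 or BDL_Wt_2240 (limma adjusted p = 0.032 to 0.0331).

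Receptors and feedback genes for bile acids were called lower more than higher. Of 12, 1 rose and 5 fell (median -0.16), though as TPM 5 rose, 2 fell and the median was 0.16. S1pr2, a membrane receptor for conjugated bile acids, rose by 1.22 ± 0.15, from 0.765 ± 0.169 to 2.47 ± 0.629 FPKM. Klb, the co-receptor for the gut hormone FGF15, fell by 1.16 ± 0.22, from 7.59 ± 0.605 to 3.34 ± 1.495 FPKM. Nr1h4, the nuclear bile acid receptor FXR, fell by 0.35 ± 0.11, from 50.2 ± 2.83 to 39.6 ± 6.38 FPKM, and Nr1i3, the receptor CAR, by 0.95 ± 0.32, both with overlap of the groups, the second a call lost without any 1 library other than Sham_Wt_2223, BDL_Wt_2235 and BDL_Wt_2237 (limma adjusted p = 0.0506 to 0.0783). Nr0b2, the FXR target SHP, measured 36.4, 15.3, 23.3, 17.6 and 20.6 FPKM in the sham and 19.2, 23.4, 22.3, 7.42 and 48.9 FPKM in the ligated libraries. The groups overlapped, with no call at -0.07 ± 0.41.

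Markers of bile duct epithelium rose together. Of 12 tested 10 rose and 0 fell (median 2.00), with 3 under 0.5 FPKM in all sham libraries, and their summed level went from 32.8 to 43.4 FPKM in sham to 239 to 630 FPKM in ligated libraries. Spp1, osteopontin, made up most of that sum, at 20.2, 16.8, 23.4, 23.5 and 24.03 FPKM in the sham and 524, 439, 580.1, 199.6 and 334 FPKM in the ligated libraries. BDL_Wt_2237 held the lowest ligated value of Spp1, far above all sham values, and Spp1 rose by 4.15 ± 0.26 (limma adjusted p = 1.8e-06). Krt19, a keratin of duct cells, rose by 2.34 ± 0.18, from 0.699 ± 0.355 to 5.45 ± 0.9001 FPKM, and Sox9, a transcription factor of duct cells, by 2.32 ± 0.33, from 1.09 ± 0.516 to 7.91 ± 4.13 FPKM. Prom1 (0.63 ± 0.34) was not called, nor was Onecut1 (-1.25 ± 0.60, though called without Sham_Wt_2223 (limma adjusted p = 0.0105)), and Cftr, the chloride channel of duct cells, did not pass the filter.

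Most junction genes that were called rose, with the hepatocyte gap junction gene among the exceptions. Of 19, 11 rose and 3 fell (median 0.69), 3 of them under 0.5 FPKM in all sham libraries. The tight junction genes Cldn4, Cldn7 and Cldn6 rose by 2.79 ± 0.16, 1.83 ± 0.15 and 1.65 ± 0.16, Cldn4 from 0.06997 ± 0.0448 to 3.53 ± 0.943 FPKM. F11r, a junctional adhesion molecule present in hepatocytes and duct cells, measured 22.1, 21.6, 22.2, 26.6 and 27.9 FPKM in the sham and 82.98, 85.6, 71.4, 70.8 and 71.1 FPKM in the ligated libraries, without overlap, and rose by 1.65 ± 0.10. The junction proteins Ocln and Cdh1 rose by 1.17 ± 0.15 and 1.18 ± 0.13. Gjb1, the main gap junction channel of hepatocytes, measured 476, 420.4, 464, 439 and 417 FPKM in the sham and 218, 254, 195, 235 and 226 FPKM in the ligated libraries. No library of either group overlapped the other, and Gjb1 fell by 0.98 ± 0.09 (limma adjusted p = 1.57e-05). Cldn5, a claudin of endothelium, fell by 1.03 ± 0.17 and Cldn12 by 0.31 ± 0.08. Cldn4 and Cldn7 are also on the list of duct markers above. Most other markers of that list rose too, and the part of duct cells in the junction changes was not tested.

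Signals known from duct formation were called in part. Of 8 Notch pathway genes 3 rose and 2 fell (median 0.29), with 1 under 0.5 FPKM in all ligated libraries. The receptor genes Notch2 and Notch1 rose by 0.82 ± 0.11 and 0.42 ± 0.10 and the ligand gene Jag1 by 0.49 ± 0.13, while Dll4 and Notch4, ligand and receptor of endothelium, fell by 0.76 ± 0.14 and 0.40 ± 0.09. The target gene Hes1 was not called (0.80 ± 0.33, though called without Sham_Wt_2229 or BDL_Wt_2237 (limma adjusted p = 0.0187 to 0.0358)). Of 7 EGF receptor family genes 3 rose, all ligands: Btc by 2.25 ± 0.18, from 0.604 ± 0.241 to 4.77 ± 1.12 FPKM, Hbegf by 1.57 ± 0.09, from 0.4197 ± 0.0668 to 2.23 ± 0.258 FPKM, and Tgfa by 0.85 ± 0.17. The receptor gene Egfr was not called (-0.68 ± 0.29, though called without Sham_Wt_2227 (limma adjusted p = 0.0199)), and its feedback inhibitor Errfi1 fell by 0.44 ± 0.13. Of 6 Eph receptors and ephrins Epha2 rose by 1.25 ± 0.11 and Epha1 by 0.66 ± 0.12, with 0 called lower (median -0.01, and 0.31 as TPM).

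Matrix genes rose. Of 17 collagen genes 12 rose and 1 fell (median 0.77), 1 of them under 0.5 FPKM in all sham libraries. Col1a1, a chain of type I collagen, the main fibre of scar, measured 1.801, 0.989, 0.935, 1.201 and 1.12 FPKM in the sham and 10.0, 10.4, 16.5, 24.2 and 14.01 FPKM in the ligated libraries. BDL_Wt_2237 was the highest, all ligated values exceeded the sham values, and Col1a1 rose by 3.13 ± 0.23 (limma adjusted p = 4.41e-06). Col3a1 and Col1a2, chains of fibrillar collagens, rose by 2.32 ± 0.19 and 2.04 ± 0.19, and the basement membrane chain Col4a1 by 2.04 ± 0.13. Col18a1, a collagen made by hepatocytes, measured 164, 169, 156, 175 and 149 FPKM in the sham and 136, 156, 117, 183 and 119 FPKM in the ligated libraries, and was not called, though called without BDL_Wt_2237 (limma adjusted p = 0.0349). Col14a1, a fibril-associated chain, fell by 0.42 ± 0.14, a call lost without any 1 library other than Sham_Wt_2227, Sham_Wt_2229, BDL_Wt_2233 and BDL_Wt_2240 (limma adjusted p = 0.0509 to 0.085).

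Of 18 matrix glycoproteins and crosslinking enzymes 11 rose and 0 fell (median 0.90), 4 of them under 0.5 FPKM in all sham libraries. Thbs1, thrombospondin 1, which can release active TGF-beta, rose by 2.73 ± 0.25, from 0.207 ± 0.0537 to 4.61 ± 2.79 FPKM. Tgm2, a transglutaminase, rose by 2.06 ± 0.16, from 25.3 ± 4.78 to 107 ± 21.8 FPKM, the elastin gene Eln by 1.53 ± 0.14 and the crosslinking enzyme gene Lox by 1.48 ± 0.21. Fn1, fibronectin, was not called at 0.24 ± 0.17, though called without BDL_Wt_2240 (limma adjusted p = 0.0494). Of 14 matrix proteases and inhibitors 12 rose and 1 fell (median 1.16), 5 of them under 0.5 FPKM in all sham libraries. Timp1, an inhibitor of metalloproteinases, measured 0.0736, 0.0754, 0, 0.0672 and 0 FPKM in the sham and 5.897, 4.802, 11.7, 27.1 and 12.1 FPKM in the ligated libraries. It was close to nothing in the sham libraries and ranged widely after ligation, rising by 4.31 ± 0.37. Mmp7, a protease of injured epithelium, and Mmp12, the macrophage elastase, rose by 2.82 ± 0.35 and 2.17 ± 0.22, and Mmp19 fell by 0.47 ± 0.09.

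Growth factors that drive matrix-producing cells and their receptors were mostly called higher. Of 16 genes of TGF-beta and PDGF signalling 11 rose and 1 fell (median 0.68), 3 of them under 0.5 FPKM in all sham libraries. Pdgfa and Pdgfb rose by 2.30 ± 0.26 and 1.55 ± 0.13, Tgfb2 by 1.54 ± 0.15 and the receptor gene Tgfbr2 by 1.18 ± 0.10, while the co-receptor gene Tgfbr3 fell by 0.71 ± 0.10. Without BDL_Wt_2237, 3 of these genes fell.

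Markers of stellate cells and myofibroblasts, the cells known to make this matrix, were called in part. Of 15, 5 rose (33.3%, against 22.7% of all genes) and 2 fell (13.3%, against 23.2%), with a median of 0.12. Their summed level was 50.8 to 71.1 FPKM in sham and 60.5 to 74.7 FPKM in ligated libraries. Acta2, the smooth muscle actin of myofibroblasts, measured 3.96, 1.92, 1.44, 1.47 and 2.24 FPKM in the sham and 1.16, 2.21, 2.75, 3.44 and 2.501 FPKM in the ligated libraries. The groups overlapped (0.12 ± 0.27, limma adjusted p = 0.741). The filament gene Vim rose by 1.29 ± 0.14 and Lum, a collagen-binding proteoglycan, by 0.84 ± 0.19, while Dcn, another, fell by 0.49 ± 0.12 and Reln by 0.47 ± 0.13. Cygb, a globin of quiescent stellate cells, rose by 0.48 ± 0.11. Without BDL_Wt_2240, 4 of the markers fell. After quantile normalization of all 10 libraries 4 rose and 4 fell.

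Myeloid markers rose. Of 12 monocyte and recruited macrophage markers 11 rose and 0 fell (median 1.40), 5 of them under 0.5 FPKM in all sham libraries, and their summed level went from 44.6 to 65.1 FPKM to 128 to 165 FPKM. Ccr2, the chemokine receptor of blood monocytes, measured 0.435, 0.327, 0.388, 0.309 and 0.207 FPKM in the sham and 4.29, 3.29, 5.76, 3.59 and 3.35 FPKM in the ligated libraries. It rose by 2.43 ± 0.14. Chil3, a chitinase-like protein of activated macrophages, rose by 4.37 ± 0.45, Cx3cr1 by 2.23 ± 0.13 and Ly6c2, a surface protein of inflammatory monocytes, by 2.18 ± 0.35. Ccr2, Chil3 and Cx3cr1 were under 0.5 FPKM in all sham libraries, passed the filter through the ligated ones and had to differ. Of 11 genes of lipid-associated macrophages 9 rose and 2 fell (median 1.96), 3 of them under 0.5 FPKM in all sham libraries. The lysosomal and lipid genes Cd63, Gpnmb and Lpl rose by 3.15 ± 0.25, 2.58 ± 0.26 and 2.45 ± 0.15. Apoe and Fabp5, which hepatocytes express too, fell by 0.62 ± 0.11 and 1.2 ± 0.35.

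Markers of resident Kupffer cells were mostly called higher, and so were the few neutrophil markers that passed the filter. Of 9 Kupffer cell markers 6 rose and 0 fell (median 0.83). The scavenger receptor gene Marco measured 4.58, 3.58, 10.1, 9.801 and 28.5 FPKM in the sham and 105, 41.7, 37.5, 94.1 and 64.03 FPKM in the ligated libraries, rising by 2.79 ± 0.50, with Sham_Wt_2223 and Sham_Wt_2224 lowest. Cd5l, Clec4f and Vsig4, secreted and surface proteins of Kupffer cells, rose by 0.87 ± 0.17, 0.85 ± 0.14 and 0.83 ± 0.18. Of 11 neutrophil markers 4 passed the filter, and 4 of them rose (median 1.56). S100a9 and S100a8, the subunits of calprotectin, rose by 2.05 ± 0.53 and 1.56 ± 0.30. The defining marker Ly6g did not pass, being listed at 0 in all sham libraries and at most 0.0576 FPKM in the ligated ones.

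Lymphocyte and dendritic cell markers gave 1 call. The 5 tested T and NK cell markers and 2 dendritic cell markers gave 0 calls (limma, with 0 at an unadjusted p under 0.05 and 0 by voom), with the granzyme genes Gzma and Gzmb at 0.26 ± 0.40 and 0.27 ± 0.30, though Gzma was called in the libraries with Xist. Of 5 B and plasma cell markers Cd79a, part of the B cell receptor, fell by 0.82 ± 0.19, from 0.628 ± 0.159 to 0.155 ± 0.204 FPKM, and the immunoglobulin genes Igkc and Igha were not called (0.36 ± 0.29 and 0.12 ± 0.26). Among markers of blood, pancreas, fat and mesothelium, Msln, a mesothelial surface protein, rose by 1.01 ± 0.26 and the elastase gene Cela1 fell by 1.74 ± 0.16.

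Endothelial markers were mostly called lower. Of 13 markers of liver sinusoidal endothelium, the fenestrated lining of the sinusoids, 10 fell and 0 rose (median -0.85), and their summed level went from 73.8 to 90.6 FPKM in sham to 38.6 to 51.9 FPKM in ligated libraries. Dnase1l3, a secreted nuclease, measured 12.5, 12.05, 9.88, 11.9 and 10.7 FPKM in the sham and 2.83, 3.49, 3.44, 2.69 and 5.05 FPKM in the ligated libraries and fell by 1.60 ± 0.14 (limma adjusted p = 1.19e-05). Kdr, a receptor for vascular endothelial growth factor, fell by 1.47 ± 0.17, and Oit3 and Clec4g, a lectin, by 1.41 ± 0.18 and 1.36 ± 0.16. Stab1 (0.02 ± 0.08) and Lyve1 (0.05 ± 0.19), scavenger and hyaluronan receptors of the same cells, were not called. Of 4 vascular markers 3 fell, among them Plvap, a fenestral diaphragm protein, by 0.66 ± 0.16, and 1 rose. As TPM 1 fell and 1 rose. Cdh5, the endothelial cadherin, rose by 0.26 ± 0.09, a call lost without any 1 library other than Sham_Wt_2223, BDL_Wt_2235 and BDL_Wt_2237 (limma adjusted p = 0.0599 to 0.1).

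**Figure D3:**
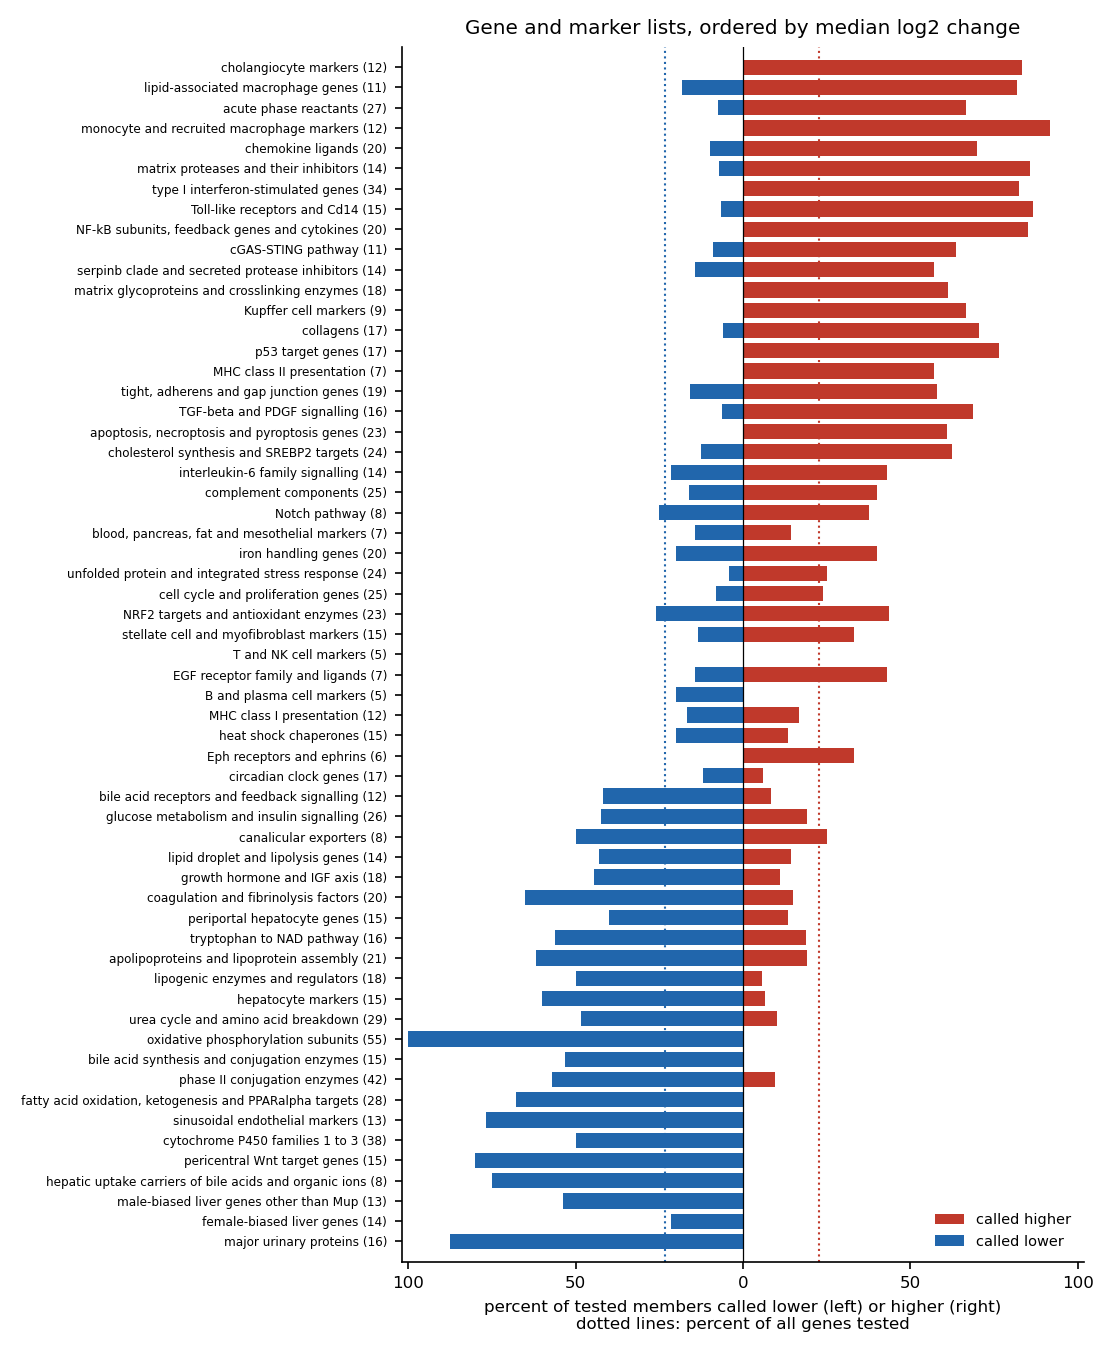
Share of tested members called higher (red, to the right) or lower (blue, to the left) for each list with at least 5 tested members, ordered by median log2 change, with the number of members in brackets. Dotted lines mark the share among all 13020 genes, 22.7% higher and 23.2% lower. All 55 oxidative phosphorylation genes were called lower. As TPM, the medians of the canalicular exporters, bile acid receptors, coagulation factors, glucose, clock and Eph lists change sign.

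Oxidative phosphorylation couples electron transfer through complexes I to IV to ATP synthesis by complex V. All 55 nuclear-encoded subunit genes of the list were called lower, with changes from -0.99 to -0.49 log2 units (median -0.74), and for 54 of them the groups did not overlap. Ndufb10, a complex I subunit, measured 76.4, 74.9, 72.6, 79.4 and 74.5 FPKM in the sham and 35.2, 42.9, 31.7, 44.9 and 35.4 FPKM in the ligated libraries, the largest fall of the list at 0.99 ± 0.10. The lowest sham value was well above the highest ligated value. As TPM 53 of the 55 were called lower, after quantile normalization 49 and in libraries with Xist 36. The part of the lower hepatocyte markers in these decreases was not tested.

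Fatty acid oxidation genes and their regulator fell as well. Of 28 genes of fatty acid oxidation, ketogenesis and PPARalpha response 19 fell and 0 rose (median -0.84). Acaa1b, a peroxisomal thiolase, fell by 2.50 ± 0.29, from 530.1 ± 115 to 99.1 ± 49.97 FPKM, and Acot1, a thioesterase, by 2.09 ± 0.31. Bdh1, which makes the ketone body hydroxybutyrate, fell by 1.74 ± 0.28. Cyp4a10, a fatty acid hydroxylase, measured 43.6, 120.5, 289, 402 and 195 FPKM in the sham and 15.4, 17.3, 13.9, 61.9 and 47.5 FPKM in the ligated libraries. Its groups overlapped, and it fell by 2.66 ± 0.62 (limma adjusted p = 0.0049). Ppara, the nuclear receptor that drives these genes, fell by 1.07 ± 0.15, from 20.2 ± 3.92 to 9.29 ± 1.67 FPKM. The part of the hepatocyte markers in these and the following metabolic decreases was not tested either. Hpd, Tat, Cps1 and Apoa1 are hepatocyte markers that are also members of lists below.

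Cholesterol synthesis genes were mostly called higher, and lipogenic genes were more often called lower than higher. Of 24 cholesterol synthesis genes and SREBP2 targets 15 rose and 3 fell (median 0.53). Hmgcs1, the cytosolic HMG-CoA synthase, measured 80.8, 56, 54.1, 72.3 and 52.9 FPKM in the sham and 144, 182, 145, 109.5 and 153 FPKM in the ligated libraries and rose by 1.21 ± 0.16 (limma adjusted p = 0.00013), without overlap. Mvd, a decarboxylase of the mevalonate pathway, rose by 1.14 ± 0.22. Sc5d, Ebp and Tm7sf2, enzymes of the last steps, fell by 1.01 ± 0.18, 0.79 ± 0.12 and 0.71 ± 0.12. Of 18 lipogenic genes 9 fell and 1 rose (median -0.59). Scd1, the hepatic stearoyl-CoA desaturase, measured 1272, 1441, 883, 1269 and 1054 FPKM in the sham and 338, 306, 545, 75.2 and 757 FPKM in the ligated libraries and fell by 1.88 ± 0.51, with BDL_Wt_2237 the lowest. Mlxipl, the carbohydrate-sensing factor ChREBP, fell by 1.74 ± 0.14, from 71.7 ± 11.9 to 21.1 ± 3.57 FPKM. Thrsp, a lipogenic regulator, fell by 1.71 ± 0.36 and Acacb, an acetyl-CoA carboxylase, by 1.63 ± 0.19. Scd2, the isoform of other tissues, rose by 1.31 ± 0.15, from 1.34 ± 0.323 to 4.11 ± 0.939 FPKM.

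Lipid storage and transport genes were called in both directions. Of 14 lipid droplet and lipolysis genes 6 fell and 2 rose (median -0.28), and as TPM 2 fell and 4 rose. G0s2, an inhibitor of the lipase ATGL, fell by 2.58 ± 0.45 and Mgll, monoglyceride lipase, by 1.94 ± 0.21, while Hilpda, another inhibitor of ATGL, rose by 1.42 ± 0.24 and the coat protein gene Plin3 by 0.62 ± 0.15. Of 21 apolipoproteins and lipoprotein genes 13 fell and 4 rose (median -0.48). Apoa2 and Apoc3 fell by 1.67 ± 0.14 and 1.09 ± 0.13. The lipoprotein lipase gene Lpl, at 4.03, 3.597, 3.298, 2.27 and 3.87 FPKM in the sham and 25.7, 19.3, 22.5, 17.4 and 18.9 FPKM in the ligated libraries, rose without overlap, the fatty acid carrier Cd36 rose by 1.66 ± 0.20, the lipid transfer protein gene Pltp by 0.93 ± 0.15 and Scarb1, a receptor for high density lipoprotein, by 0.35 ± 0.08.

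Detoxification enzymes fell, and few rose. Of 38 cytochrome P450 genes of families 1 to 3 19 fell and 0 rose (median -1.20), beside 23.2% and 22.7% of all genes. Cyp2c29 measured 429.6, 364, 309, 379.5 and 289 FPKM in the sham and 38.04, 49.7, 39.95, 48.8 and 52.9 FPKM in the ligated libraries, far apart in the groups, and fell by 2.93 ± 0.13 (limma adjusted p = 3.49e-07). Cyp2c37 fell by 3.51 ± 0.46. Close members of the Cyp2c family share reads, which makes single values uncertain. Of 42 phase II conjugation enzymes 24 fell and 4 rose (median -0.78). Ugt2b1, a glucuronosyltransferase, and Sult5a1, a sulfotransferase, fell by 3.35 ± 0.44 and 3.00 ± 0.31. Gsta1 and Gstm3, glutathione transferases, rose by 2.76 ± 0.69 and 2.40 ± 0.33. Sult1e1, the estrogen sulfotransferase, measured 0, 0, 0.144, 0.0481 and 0.523 FPKM in the sham and 2.27, 4.99, 1.24, 26.5 and 0.648 FPKM in the ligated libraries. It rose by 2.63 ± 0.71 (limma adjusted p = 0.0113), a call lost by voom (voom adjusted p = 0.068), with BDL_Wt_2237 far above the other ligated libraries.

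Of 23 NRF2 targets and antioxidant enzymes 10 rose and 6 fell (median 0.22). Hmox1, heme oxygenase, rose by 1.79 ± 0.18, from 15.96 ± 3.098 to 56.7 ± 13.3 FPKM, the reductase genes Cbr3 and Srxn1 by 1.60 ± 0.26 and 1.44 ± 0.25 and Gpx3 by 1.56 ± 0.19. Sod1, the cytosolic superoxide dismutase, fell by 1.07 ± 0.09, from 178 ± 10.1 to 84.5 ± 9.52 FPKM.

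Major urinary proteins are pheromone carriers that male liver secretes in bulk under pulsed growth hormone. Of 16 tested Mup genes 14 fell and 0 rose (median -4.41), and 8 were under 0.5 FPKM in all ligated libraries. Mup3 measured 8615, 6559, 2855, 3047 and 2804 FPKM in the sham and 70.02, 95, 121, 10.6 and 318 FPKM in the ligated libraries, without overlap, and fell by 5.77 ± 0.75 (limma adjusted p = 0.00013). Mup17, at 700.2, 671, 128, 38.6 and 32.8 FPKM in the sham and 0.127, 0.119, 0.101, 0 and 0.232 FPKM in the ligated libraries, fell close to nothing in all ligated libraries. The Mup genes are near-identical copies and share reads, so a value of 1 copy is uncertain, while their sum went from 3483 to 20830 FPKM in sham to 156 to 1798 FPKM in ligated libraries. Mup20, a distinct member known as darcin, measured 1483, 1059, 84.2, 42.01 and 27.3 FPKM in the sham and 1173, 1224, 1645, 145 and 822 FPKM in the ligated libraries. Its levels followed the class of the library in sham livers, high with Y-linked transcripts and low with Xist, and it was not called (2.16 ± 1.17), though called without Sham_Wt_2223 (limma adjusted p = 0.0493).

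For other genes known to differ between male and female liver, the number called differed with the class of library. Of 13 male-biased genes other than Mup 7 fell and 0 rose (median -2.04), 1 of them under 0.5 FPKM in all ligated libraries. In libraries with Y-linked transcripts 12 of them fell (median -3.47), and in libraries with Xist 5 fell and 1 rose. Of 14 female-biased genes 3 fell (21.4%, against 23.2% of all genes) and 0 rose (against 22.7%), with a median of -2.13. None of them separated the groups without overlap, where 33% of all genes did. In libraries with Xist 8 fell, and in libraries with Y-linked transcripts 3 fell and 2 rose. Removal of single libraries left 1 to 7 of them called lower, 7 without Sham_Wt_2224, 6 without Sham_Wt_2223, and 1 without any 1 of Sham_Wt_2227, Sham_Wt_2228, Sham_Wt_2229, BDL_Wt_2233, BDL_Wt_2235 and BDL_Wt_2236.

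The difference between the classes was read in 1 fit with a term for class in each group, a fit added after the data were seen. In sham livers 196 genes differed between libraries with Y-linked transcripts and libraries with Xist, and in ligated livers 20, of which 17 were called in both. The 196 were chosen by their sham difference, so their median absolute difference of 1.38 log2 units in sham and 0.39 after ligation is a description. The response to ligation differed between the classes for 18 genes (limma adjusted p under 0.05; 1057 at an unadjusted p under 0.05). All 18 differed in sham livers, 13 higher with Xist and 5 higher with Y-linked transcripts, and for each of the 18 the class difference was smaller after ligation. The 18 were chosen by the change of the class difference itself, so this too is a description. The sham class groups held 2 and 3 libraries and the ligated ones 3 and 2.

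Values of single genes among the 18 follow. Hsd3b5, a steroid dehydrogenase of male liver, measured 207, 163, 6.62, 4.09 and 10.4 FPKM in the sham and 0.07597, 0, 0.0301, 0.035 and 0 FPKM in the ligated libraries, with a response of -8.43 log2 units with Y-linked transcripts and -3.78 with Xist, a difference of -4.66. Cyp2c69, a P450 of female liver, measured 3.99, 1.17, 368, 555 and 478 FPKM in the sham and 0.133, 0.188, 0.106, 4.26 and 7.03 FPKM in the ligated libraries. It was high only in sham libraries with Xist, fell by 6.27 there and by 2.10 in the other class, and its responses differed by 4.17. Over both classes it fell by 5.24 ± 1.78, a call lost without any 1 library other than Sham_Wt_2223, Sham_Wt_2224, BDL_Wt_2237 and BDL_Wt_2240 (limma adjusted p = 0.0737 to 0.0769), and also lost by voom (voom adjusted p = 0.22). A1bg, a plasma glycoprotein of female liver, measured 0.0272, 0.0558, 37.3, 65.1 and 147 FPKM in the sham and 0.196, 0.0462, 0.0778, 0.542 and 0.537 FPKM in the ligated libraries. All ligated values of A1bg were under 1 FPKM, like the sham libraries with Y-linked transcripts, and the responses differed by 6.26. Over both classes A1bg was not called at -3.76 ± 1.58, though called without Sham_Wt_2223 or Sham_Wt_2224 (limma adjusted p = 0.0168 to 0.0204). Cyp3a41a measured 0, 0, 46.3, 36.95 and 30.2 FPKM in the sham and 0, 0, 0, 0.605 and 2.37 FPKM in the ligated libraries, with a difference of 4.41, though Cyp3a copies share reads. Over both classes it was not called at -3.01 ± 1.44, though called without Sham_Wt_2223 or Sham_Wt_2224 (limma adjusted p = 0.0299 to 0.0335).

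**Figure D4:**
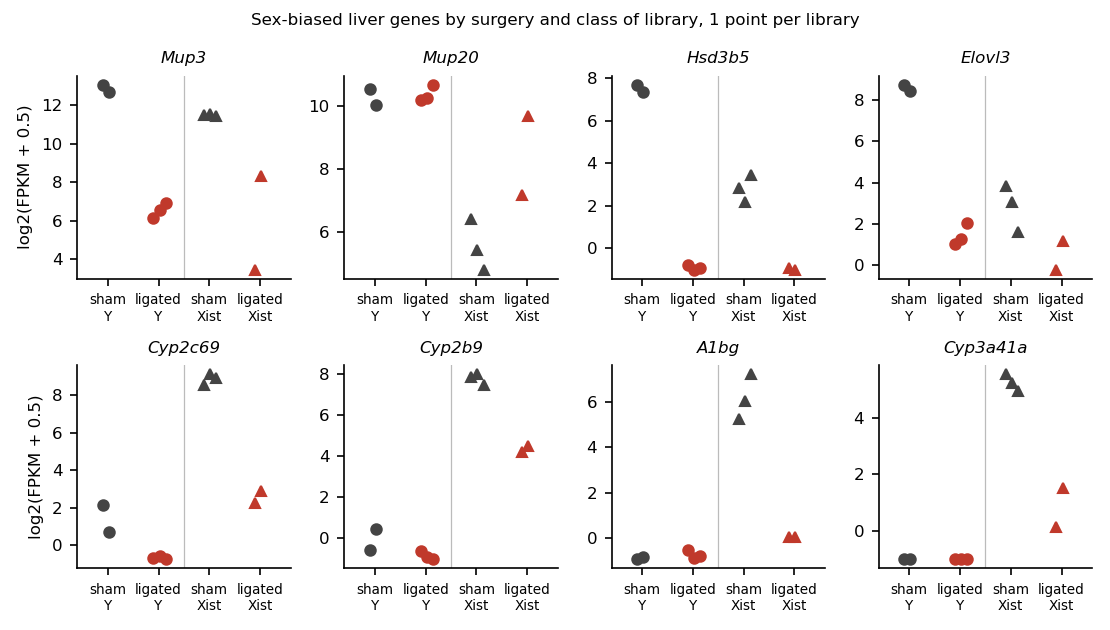
Level of 8 sex-biased liver genes, log2(FPKM + 0.5) on the vertical axis, in sham (grey) and ligated (red) libraries with Y-linked transcripts (circles) or Xist (triangles), 1 point per library. Hsd3b5 is highest in sham libraries with Y-linked transcripts and Cyp2c69, A1bg and Cyp3a41a in sham libraries with Xist. After ligation the classes lie closer together for these genes, which were called by the test of that change.

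Genes of the growth hormone axis, which is known to set sex differences in liver, were called lower at several steps. Their part in the class differences above was not tested. Of 18 genes 8 fell and 2 rose (median -0.32), and as TPM 4 fell and 3 rose. Ghr, the growth hormone receptor, measured 77.8, 67.5, 52.5, 56.4 and 50.7 FPKM in the sham and 21.1, 29.5, 17.2, 19.7 and 20.6 FPKM in the ligated libraries, without overlap, and fell by 1.48 ± 0.16 (limma adjusted p = 3.59e-05). Igfals and Igfbp3, plasma carriers of IGF-1, fell by 1.42 ± 0.21 and 1.18 ± 0.29. Jak2, the kinase of the receptor, rose by 0.30 ± 0.08 and Igf2r, a clearance receptor, by 0.63 ± 0.08. Igf1, the circulating mediator of growth hormone, fell by 0.58 ± 0.14, from 62.3 ± 8.86 to 41.7 ± 7.44 FPKM, without overlap.

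Amino acid breakdown fell in part. Of 29 urea cycle and amino acid genes 14 fell and 3 rose (median -0.64). Hpd, which degrades tyrosine, fell by 1.41 ± 0.21, Agxt, which detoxifies glyoxylate, by 1.42 ± 0.16 and Hal, histidase, by 1.35 ± 0.30. Bhmt, which remethylates homocysteine with betaine, rose by 1.33 ± 0.30, from 401 ± 109.9 to 1041 ± 375 FPKM. The urea cycle gene Cps1 (-0.17 ± 0.21) was not called. Arg1 was not called at -0.26 ± 0.18, though called without BDL_Wt_2237 (limma adjusted p = 0.00845), nor was Ass1 at -0.42 ± 0.23, though called without BDL_Wt_2237 (limma adjusted p = 0.0359). Of 16 genes from tryptophan to NAD 9 fell and 3 rose (median -0.45), and as TPM 4 fell and 3 rose. Haao and Afmid of the kynurenine pathway fell by 1.52 ± 0.13 and 1.23 ± 0.22. Acmsd, which diverts the pathway from NAD, rose by 1.08 ± 0.15, from 5.42 ± 1.35 to 11.8 ± 1.02 FPKM, Nampt, which salvages nicotinamide, by 1.05 ± 0.12 and Cd38, which consumes NAD, by 0.63 ± 0.07.

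Genes of glucose metabolism were called in both directions. Of 26 genes 11 fell and 5 rose (median -0.22), though as TPM 8 fell, 8 rose and the median was 0.10. G6pc, the last step of glucose release, measured 283, 375, 374, 401 and 159.5 FPKM in the sham and 46.7, 82.7, 60.1, 54.5 and 57.8 FPKM in the ligated libraries and fell by 2.34 ± 0.25, without overlap. Pklr, the liver pyruvate kinase, fell by 1.47 ± 0.11, from 62.2 ± 10.2 to 21.96 ± 0.861 FPKM, while Pkm, the isoform of most other tissues, rose by 1.11 ± 0.18, from 5.63 ± 0.937 to 12.97 ± 3.41 FPKM. Khk, fructokinase, fell by 1.39 ± 0.11. Hk2, a hexokinase of other tissues, rose by 0.93 ± 0.11 and Slc2a1, a glucose carrier, by 0.92 ± 0.19.

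Hepatocytes near the central vein and near the portal vein express different enzymes, and Wnt signals from central endothelium maintain the central set. Of 15 pericentral Wnt target genes 12 fell and 0 rose (median -1.39), and of 15 periportal genes 6 fell and 2 rose (median -0.42). As TPM the medians were -1.11 and -0.10. Cyp2e1, an ethanol-oxidising P450, measured 2826, 3175, 3004, 3212 and 3219 FPKM in the sham and 404, 993, 567, 1054 and 681 FPKM in the ligated libraries, with BDL_Wt_2233 the lowest, and fell by 2.15 ± 0.24 (limma adjusted p = 4.62e-05). Cyp1a2, Rgn and the transcription factor gene Tbx3 fell by 2.79 ± 0.33, 2.03 ± 0.23 and 1.82 ± 0.14, and Glul, glutamine synthetase, and Axin2, a direct Wnt target, by 1.42 ± 0.33 and 1.39 ± 0.17. The Wnt ligand gene Wnt2 of sinusoidal endothelium fell by 0.85 ± 0.18, from 1.45 ± 0.312 to 0.6001 ± 0.284 FPKM, and Wnt9b did not pass the filter. Wnt2 is itself on the list of sinusoidal endothelial markers above, which were mostly called lower. The part of a change of these cells in the fall of Wnt2 was not tested.

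On the periportal side, Cyp2f2 fell by 1.84 ± 0.27, Hal by 1.35 ± 0.30 and Gls2, the liver glutaminase, by 1.15 ± 0.23. Hsd17b13, a lipid droplet enzyme, rose by 0.93 ± 0.15, from 134 ± 13.2 to 259.7 ± 59.8 FPKM, and Sdsl by 0.64 ± 0.13. Pck1, which starts gluconeogenesis, was not called at -0.18 ± 0.20. Whether the lists differ from each other was not tested. Of 17 clock genes 1 rose, Per2 by 1.11 ± 0.27, and 2 fell, Nr1d1 by 1.33 ± 0.40 and Hlf by 0.80 ± 0.14 (median -0.10, and 0.12 as TPM). As TPM 4 of the clock genes rose and 1 fell. The sources used here do not give the hour of collection.

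**Figure D5:**
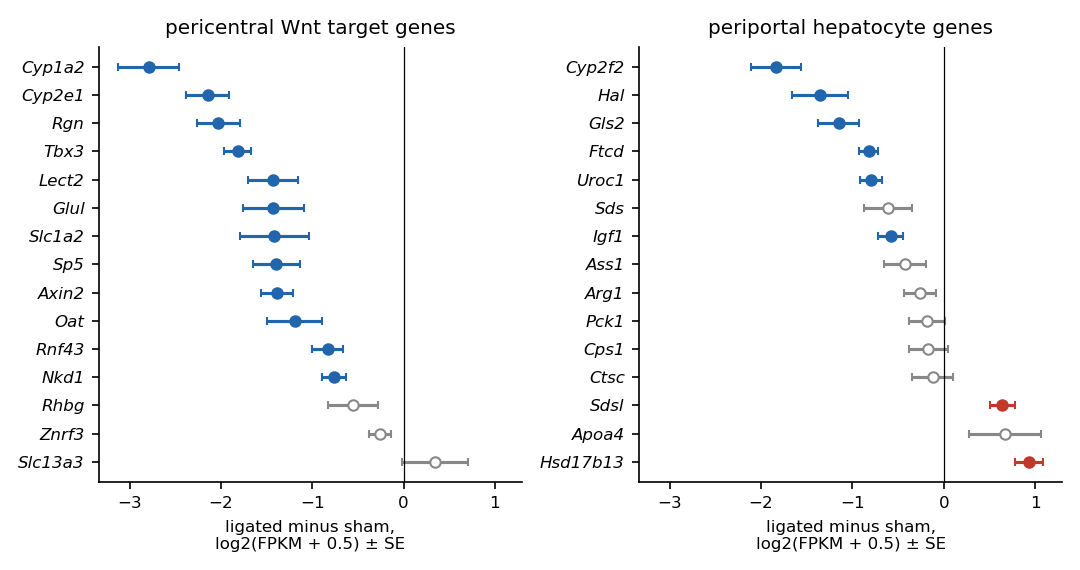
Change of each tested pericentral Wnt target gene (left) and periportal gene (right), ligated minus sham in log2 units with standard error as bars. Filled points were called (blue lower, red higher) and open points were not, with 12 of 15 lower on the left and 6 lower and 2 higher of 15 on the right.

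Of 17 p53 target genes 13 rose and 0 fell (median 0.74), 1 of them under 0.5 FPKM in all sham libraries, and in libraries with Xist 5 rose. Cdkn1a, the cell cycle inhibitor p21, measured 2.21, 2.43, 1.66, 3.29 and 2.99 FPKM in the sham and 30.7, 16.2, 39.3, 13.5 and 45.6 FPKM in the ligated libraries, without overlap, and rose by 3.17 ± 0.32 (limma adjusted p = 2.92e-05). Btg2, an antiproliferative gene, rose by 3.15 ± 0.22, Phlda3, an inhibitor of AKT, by 2.84 ± 0.25 and the secreted stress factor Gdf15 by 2.20 ± 0.49. Of 23 cell death genes 14 rose and 0 fell (median 0.53). Tnfrsf12a, the receptor of the cytokine TWEAK, rose by 3.01 ± 0.22, from 3.52 ± 1.04 to 32.3 ± 9.54 FPKM, Mlkl, the effector of necroptosis, by 1.24 ± 0.24, Casp12 by 1.17 ± 0.19 and Pmaip1, the proapoptotic protein NOXA, by 1.07 ± 0.15.

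Of 25 proliferation genes 6 rose (24%, against 22.7% of all genes) and 2 fell (8%, against 23.2%), with a median of 0.23. As TPM 15 rose and 1 fell. After quantile normalization 3 rose and 3 fell. Cdc20, an activator of the anaphase complex, rose by 0.89 ± 0.17 and the replication gene Mcm6 by 0.76 ± 0.13. E2f8, a repressor active in polyploid hepatocytes, fell by 1.49 ± 0.31 and Rrm2, a subunit of ribonucleotide reductase, by 0.63 ± 0.21, the latter a call lost without any 1 library other than Sham_Wt_2223, BDL_Wt_2237 and BDL_Wt_2240 (limma adjusted p = 0.0511 to 0.0792). Mki67, the proliferation marker Ki-67, measured 1.05, 1.04, 1.38, 0.926 and 1.102 FPKM in the sham and 1, 1.03, 1.53, 1.71 and 1.69 FPKM in the ligated libraries. The groups overlapped, with no call at 0.23 ± 0.14 (limma adjusted p = 0.198).

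Of 24 genes of the unfolded protein and integrated stress response 6 rose (25%, against 22.7% of all genes) and 1 fell (4.17%, against 23.2%), with a median of 0.25. As TPM 13 rose and 1 fell. The stress transcription factor gene Atf3 rose by 2.96 ± 0.23, from 0.821 ± 0.37 to 9.69 ± 2.47 FPKM, Ddit4, an inhibitor of mTOR, by 2.08 ± 0.29 and Asns, asparagine synthetase, by 1.72 ± 0.26, while Atf5 fell by 0.96 ± 0.13. The chaperone gene Hspa5, the marker of stress in the endoplasmic reticulum, was not called at 0.54 ± 0.27, though called without BDL_Wt_2237 (limma adjusted p = 0.0331). Of 15 heat shock genes 2 rose (13.3%) and 3 fell (20%), with a median of 0.05, though as TPM 7 rose and 3 fell. On the deposited scale the mitochondrial chaperones Hspd1 and Hspe1 were among those that fell, by 0.56 ± 0.09 and 0.67 ± 0.10. Of 20 iron genes 8 rose and 4 fell (median 0.26). Trf, the plasma iron carrier transferrin, rose by 0.76 ± 0.15, from 139 ± 28.8 to 234 ± 30.8 FPKM, whereas Tfr2 and Tmprss6, hepatocyte regulators of hepcidin, fell by 0.38 ± 0.09 and 0.69 ± 0.10 beside Hamp.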

How the data were processed

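Polyadenylated RNA extracted with TRIzol was made into libraries with the VAHTS Universal V6 kit, per the labels' protocols. The submitters' processing notes name CASAVA 1.8, fastp, HISAT2 2.0.5, featureCounts 1.5.0-p3, DESeq2 1.20.0, GRCm38 and mm10, without order. The deposited table gives FPKM per gene. Its scaling between libraries differed from the recovered fragment totals, since scaling to those totals moved the median of all genes by 0.162 log2 units. Median-ratio scaling moved it by -0.009. No strand setting is given in the sources used here, so overlapping genes on opposite strands cannot be told apart. Values under 30 fragments came out as whole fragments, within 0.02, for 97.88% to 98.39% of genes per library. Here log2(FPKM + 0.5) of 5 ligated and 5 sham libraries was fitted with limma 3.58.1 (R 4.3.3, robust empirical Bayes with a mean-variance trend, 2 groups) on genes at 0.5 FPKM or more in at least 5 of the 10, and adjusted by Benjamini-Hochberg over all 13020, with an adjusted p under 0.05 as a call. Tables and figures were made with Python 3.11.15, pandas 2.3.3, numpy 2.4.6 and matplotlib 3.10.9. Gene IDs, biotypes and coordinates were matched by unique gene name to GENCODE M21 for 99.3% of genes. The fit was tested on data simulated from the sham means and pooled spread of each gene. There it recovered 83.5% to 86% of 2-fold and 95% to 96% of 4-fold changes with at most 6.80% false calls. In the simulation few genes changed, as many up as down, noise was independent between genes and no shift of scale was added. In the real comparison 45.9% of genes were called, so these rates need not hold for it. The members and the 63 lists were chosen with earlier results of these data known. Alternatives were the pseudocount, the filter, TPM, median-ratio, quantile and total-fragment scaling, array weights, all 4 groups, the class of library, voom and leaving out each library. Named were called protein-coding genes whose groups did not overlap and whose mean reached 1 FPKM in either group (the 12 largest increases and decreases, the 6 largest in FPKM each way, the 6 smallest p), and per list up to 4 called members with the largest change, members called against the rest and, with under 2 calls, the 2 most abundant members. Some genes that meet this rule are not reported here. Outside that rule, 55 genes were chosen after their values were seen: A1bg, Abcb11, Abcc2, Acta2, Arg1, Ass1, Axin2, Baat, Ccl5, Cd79a, Cdh1, Col18a1, Cps1, Crp, Cxcl2, Cxcl9, Cyp3a41a, Cyp7a1, Egfr, Fga, Fgb, Fgg, Fn1, Glul, Hes1, Hspa5, Ifit1, Igf1, Il18, Il1a, Il6st, Irf7, Irf9, Isg15, Ly96, Lyve1, Mki67, Mup20, Nfkb1, Nr0b2, Nr1h4, Ocln, Onecut1, Orm3, Pck1, Ppara, Prom1, Rela, Slco1a4, Slco1b2, Stab1, Stat2, Stat3, Tbk1 and Wnt2. Under 0.5 FPKM in all sham libraries, and so bound to differ, were C5ar1, Ccr2, Chil3, Cldn4, Cldn6, Cldn7, Cx3cr1, Cxcl2, Gpnmb, Lox, Mmp12, Mmp7, Sprr1a, Tgfb2, Thbs1, Timp1 and Tlr9, and in all ligated libraries Hsd3b5, Mup12, Mup17 and Notch4.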

Additional observations from a re-analysis of the deposited data

Results flagged for a closer look

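In 34 of 612 groups of 5 libraries, 1 library of a named gene lay far from the other 4 on the log2 scale by Dixon's criterion, which chance meets in about 1 of 20 groups. The values below are FPKM, with the range of the other 4 libraries of the group after each. BDL_Wt_2235 stood apart for Cd74 (87.4, others 135 to 152), Col4a1 (13.5, others 19.7 to 21.1) and Ctss (95.6, others 129 to 140.0). BDL_Wt_2236 stood apart for C5ar1 (3.82, others 2.36 to 2.67). BDL_Wt_2237 stood apart for Clec4g (3.92, others 6.68 to 8.04), Epha2 (9.59, others 12.2 to 13.3), Irf9 (12.1, others 14.7 to 15.4) and Mup20 (145, others 822 to 1645). In BDL_Wt_2237 the same held for Rela (23.6, others 31.2 to 33.8), Sprr1a (3.43, others 21.8 to 35.8), Tgfbr3 (1.06, others 0.638 to 0.742) and Thbs1 (9.59, others 2.96 to 3.61). BDL_Wt_2240 stood apart for Acacb (5.61, others 3.35 to 3.52), Cd79a (0.516, others 0.0372 to 0.121), Fabp1 (977, others 182 to 266) and Gstm3 (473, others 136 to 192). In BDL_Wt_2240 the same held for Irf3 (14.5, others 13.9 to 14), Prom1 (3.05, others 0.486 to 0.824) and Stab1 (4.36, others 5.24 to 5.56). Sham_Wt_2224 stood apart for Epcam (1.05, others 0.979 to 0.995). Sham_Wt_2227 stood apart for Hamp (5194, others 2613 to 2764). Sham_Wt_2228 stood apart for Acacb (20.5, others 10.8 to 12.5). Sham_Wt_2229 stood apart for Acaa1b (332, others 546 to 609), Arg1 (512, others 565 to 587), Cyp8b1 (43.4, others 163 to 254) and Fabp5 (45.3, others 10.3 to 13.6). In Sham_Wt_2229 the same held for Fga (3598, others 1762 to 2004), Fgb (2524, others 1277 to 1491), Fgg (3509, others 1783 to 1983) and Irf9 (17.2, others 12.5 to 13.3). Further genes of Sham_Wt_2229 were Ly96 (3.52, others 2.75 to 2.88), S100a8 (3.17, others 1.16 to 1.55), Tgm2 (33.6, others 21.8 to 24.4) and Tnfrsf12a (5.35, others 2.81 to 3.24). The response to ligation also differed between libraries with Y-linked transcripts and libraries with Xist, by the limma test of that difference, for A1bg (6.26 log2 units), Cyp2c69 (4.17 log2 units), Cyp3a41a (4.41 log2 units) and Hsd3b5 (-4.66 log2 units), where a negative value is a larger fall with Y-linked transcripts and a positive one a larger fall with Xist.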

How the results depend on the processing

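The deposited scale gave 5974 calls. A pseudocount of 0.1 FPKM gave 5944 (5936 shared), one of 1 FPKM 5970 (5963 shared), the fit over all 4 groups 4848 (4792 shared) and voom on recovered fragments 5926 (5752 shared). Leaving out 1 library at a time gave 5244 to 5855 calls, 2648 to 2928 higher and 2596 to 2927 lower. As TPM 5857 genes were called higher and 1271 lower, with 4225 of the calls shared, and after scaling to total fragments 1765 were called lower. Libraries with Xist alone, 3 sham and 2 ligated, gave 2517 calls, 1364 higher and 1153 lower, from fewer samples. Of 264 named genes that were called, 24 lost the call under at least 1 other scaling: Abcb11, Abcc2, Alb, B2m, Cldn12, Col14a1, Cyp7b1, Dcn, Errfi1, H2-K1, Hamp, Hspd1, Igf1, Irf3, Mbl1, Mmp19, Notch4, Nr1d1, Nr1h4, Nr1i3, Plvap, Reln, Rrm2 and Tfr2. The fit over all 4 groups took the call from Cd5l, Cd74, Cdc20, Cdh5, Cygb, Jag1, Kng2, Lum, Mcm6, Notch1, Sdsl, Sult1e1 and Tap1 as well. Voom took it from Cyp2c69, Hamp2, Hsd3b5, Mup12 and Sult1e1, the test of all genes above 0 in 1 library from Abcc2, Cdh5, Col14a1, Cyp2c69, Cyp7b1, Nr1i3, Rrm2 and Tap1, array weights from Tap1 and class as a covariate from Abcc2. Under at least 1 other scaling Abcc3, Crp, Fga, Fgb, Fgg, Fn1, Hes1, Hspa5, Il6st, Irf7, Irf9, Mki67, Stab1, Stat2, Stat3 and Tbk1 were called higher or lower where the deposited scale gave no call. Direction turned for B2m (0.10 log2 units with quantile normalization), Baat (0.27 log2 units with TPM), Baat (0.33 log2 units with quantile normalization) and Cldn12 (0.007 log2 units with TPM), and the cause was not tested. Among libraries with Y-linked transcripts alone 29 named genes lost the call, and among those with Xist alone 81. No paired analysis was possible because the groups share no library numbers. At these depths, values near 0.05 FPKM rest on about 1 fragment per kilobase, so genes below the filter were not compared.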

Other observations

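Some members of the lists stayed under the filter, so that no test was made, and their values are given as a description, chosen after they were seen. A2m, a plasma protease inhibitor of the acute phase, ranged over 0 to 0.01697 FPKM in sham and 0.201 to 3.62 FPKM in ligated libraries. Eda2r, a p53 target and receptor of the tumor necrosis factor family, ranged over 0.0554 to 0.162 FPKM in sham and 0.432 to 2.24 FPKM in ligated libraries. Cftr, the chloride channel of duct cells, ranged over 0 to 0.0384 FPKM in sham and 0.194 to 0.417 FPKM in ligated libraries, and Cidea, a lipid droplet protein listed at 0 in all sham libraries, over 0.281 to 0.784 FPKM in the ligated libraries. Ciita, the master regulator of MHC class II genes, ranged over 0.189 to 0.388 FPKM in sham and 0.424 to 0.867 FPKM in ligated libraries. The ranges of these 5 genes did not overlap. Tnf overlapped, at 0.182 to 0.364 FPKM in sham and 0.331 to 1.34 FPKM in ligated libraries, and Lgr5, a Wnt target of central hepatocytes, overlapped as well, at 0.411 to 1.62 FPKM in sham and 0.132 to 0.486 FPKM in ligated libraries.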
